A study of Mus musculus with 15 samples.

Results

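The 8 genes *Pax6*, *Six3*, *Prox1*, *Maf*, *Meis1*, *Eya1*, *Hsf4* and *Tdrd7* are regulators of lens fate. They were taken by name from the gene symbols of the deposited expression tables, in which they are 8 of the 11935 genes listed over both tables together. The table of cultures holds 7 of them among 11677 genes, and the table of spheroid regions holds all 8 among 11299 genes. *Hsf4* has a row among the regions only, and its culture levels were not analysed here.

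The samples all came from 21EM15, a wild-type mouse lens epithelial cell line with no added treatment named in the labels, grown either flat (2D) or as free-floating spheroids (3D). There were 4 samples of 2D cultures and 4 of whole 3D spheroids. From sections of spheroids, the Internal region was captured by laser in 4 samples and the External region in 3, each from pooled spheroids, and the zone between them was not dissected. RNA was sequenced from the 3′ end of transcripts, so that a transcript gives about the same number of reads whatever its length, and levels of different genes were set side by side as log2 CPM, the reads of a gene scaled to a common library size. The study retained its External and Internal samples after a principal component analysis of these data, and a further External sample was not analysed here. As the line is a single immortalised culture, the samples are separate preparations of the same cells, and the p-values measure the spread between preparations.

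In the embryo, PAX6 and SIX3 are homeodomain proteins that specify the lens territory, and MEIS1 is a homeodomain cofactor that acts on *Pax6* in the lens placode. EYA1 is a phosphatase and transcriptional coactivator that binds sine oculis homeobox proteins. PROX1, a divergent homeodomain protein, and c-MAF, a basic leucine zipper protein encoded by *Maf*, drive the elongation of fiber cells and switch on crystallin genes, and HSF4 is the heat shock factor needed for fiber maturation. TDRD7 is a Tudor domain protein of RNA granules that acts on lens messenger RNAs, and loss of *Tdrd7* or *Hsf4* function causes cataract.

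The libraries held 7305053 to 9362587 reads in the cultures and 4044230 to 11702504 in the regions, so that 3 reads were worth between 0.248 and 0.802 CPM. A library stood apart for these genes: the third 2D sample had 190 genes without a read, against 21 to 68 in the other culture samples. It was the sole library in which genes with at least 100 reads in every other sample of their group fell to 3 reads or fewer, among them *Prox1* (1 read), *Pdlim4* (3) and *Zfp536* (0). The cause was not tested, and the culture values of the members are given with and without it. The markers check the label of the cells only in part. Of 9 markers of lens epithelium, 5 had a row in each table, among them *Pax6*, itself a member, while *Foxe3*, *Cdh1*, *Cryaa* and *Wnt7a* had none. Their summed level over all samples was 387 to 1340 RPM (reads scaled to the library total), against 9270 to 21300 for fibroblast or mesenchymal markers. Of 21 markers of lens fibers, 1 had a row in each table (*Cryba4* in the cultures and *Bfsp1* in the regions), with at most 4.46 RPM in any sample.

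The 2 tables were scaled separately by the authors, so tests were made within a table, and levels from the cultures and the regions are set side by side as a description. A change was called at a Benjamini-Hochberg adjusted p below 0.01 with a log2 fold change beyond 1, both in limma.

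The regulators divided into abundant and scarce genes in all 4 conditions. *Six3* had the highest mean level of the members everywhere, from 8.42 ± 0.23 log2 CPM (SD, n = 3) in External to 9.41 ± 0.19 (n = 4) in 3D, and every sample of *Six3* lay above every sample of the next gene in each condition. *Pax6*, *Prox1*, *Maf* and *Meis1* formed a middle tier, and *Eya1*, *Tdrd7* and *Hsf4* were rare, with at most 209 reads in any library. In 2D the order after *Six3* was *Pax6*, *Maf*, *Meis1*, *Prox1*, *Eya1* and *Tdrd7*, and each neighbouring pair from *Pax6* down overlapped between samples. Without the third 2D sample 2 of the 7 genes, *Six3* and *Pax6*, kept their rank. In 3D, *Prox1* (6.42 ± 0.20), *Maf* (6.42 ± 0.50) and *Pax6* (6.34 ± 0.31) could not be separated and all their samples lay above those of *Meis1*. In External, *Pax6* (7.0 ± 0.27) overlapped *Prox1* (6.66 ± 0.12), and *Meis1* overlapped *Maf*. In Internal, *Prox1* (8.11 ± 0.08) came next, with all 4 samples above those of *Pax6* (7.65 ± 0.22), which in turn lay above *Maf*. The lowest *Pax6* sample (7.39) and the highest *Meis1* sample (7.40) overlapped.

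**Figure D1:**
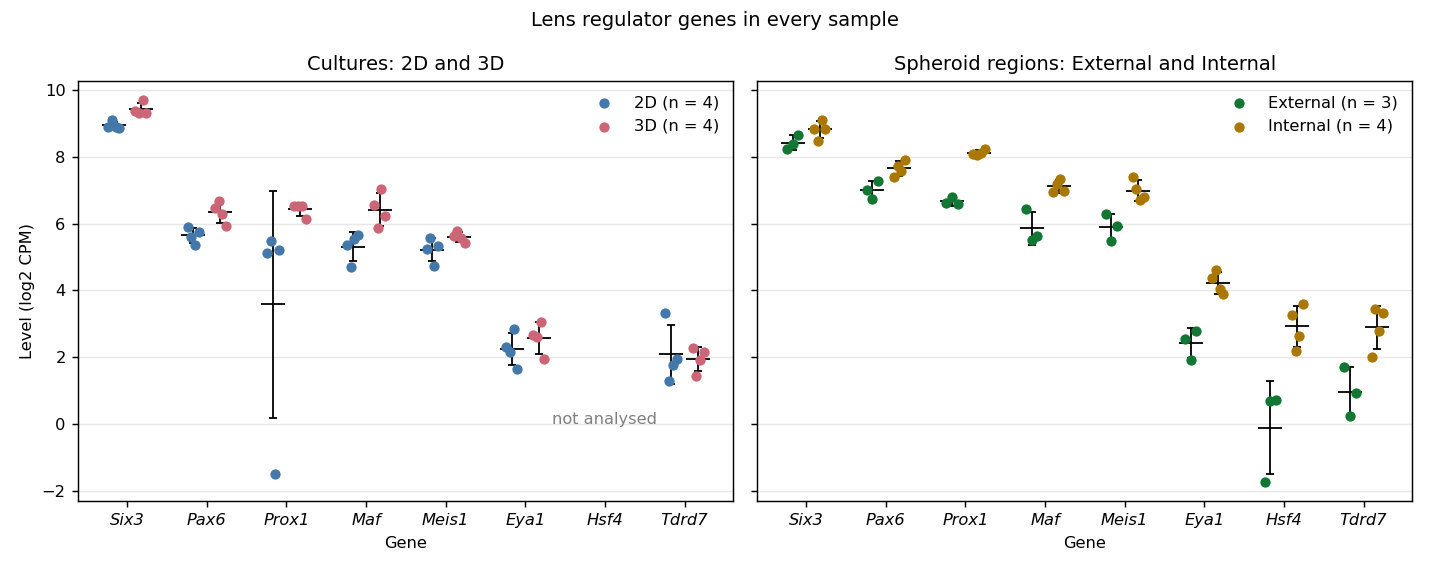
Level of each regulator in every sample (y axis, log2 CPM) by gene (x axis), with 2D and 3D cultures on the left and External and Internal regions on the right. Points are samples, horizontal bars the group means and whiskers 1 SD; the lowest 2D point of *Prox1* is the library with 1 read, and Internal points lie above all External points for every gene but *Six3*.

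Comparing Internal with External asks whether the regulators differ between the core and the rim of a spheroid. Of the 8 genes, 5 were called higher in Internal (*Prox1*, *Maf*, *Meis1*, *Eya1* and *Hsf4*) and 0 lower, where 3.27% of all genes were called higher and 4.35% lower. The voom alternative called 3 of these (*Prox1*, *Maf* and *Meis1*), and the fit without a variance trend called 2 (*Prox1* and *Eya1*). Leaving out each sample in turn gave 3 to 5. For 7 of 8 every Internal sample lay above every External sample, which held for 13.5% of all genes. The median log2 fold change of the members was 1.35, against 0.04 over all genes. *Eya1*, *Hsf4*, *Maf*, *Meis1*, *Prox1* and *Tdrd7* were named by the study as internal genes from these same samples, so their direction is not independent evidence. In bulk RNA of a region, more cells that express a gene and more RNA in each cell cannot be told apart.

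Comparing 3D with 2D asks how whole spheroids differ from flat cultures. By the paper's methods, dishes were taken short of confluence and spheroids were grown for longer. Culture form, density and time in culture therefore cannot be told apart. No member was called: 0 of 7 higher and 0 lower, where 2.92% of all genes were called higher and 1.51% lower. The voom alternative of limma also called 0. At an unadjusted p below 0.05 there were 4 members, all higher in 3D, against 33.7% of all genes, and at an adjusted p below 0.05 there were 3, *Maf*, *Pax6* and *Six3*, against 19.0% of all genes. In 4 of 7 genes (*Pax6*, *Six3*, *Prox1* and *Maf*) every 3D sample lay above every 2D sample, against 12.0% of all genes. The median log2 fold change of the members was 0.48, and that of all genes was -0.03. Without the third 2D sample the log2 fold changes were 0.59 for *Pax6* and 0.47 for *Six3* (adjusted p = 0.068 and 0.0686, limma). They were then 1.19 for *Maf* (adjusted p = 0.0294), 0.53 for *Eya1* (adjusted p = 0.34) and -0.25 for *Tdrd7* (adjusted p = 0.774), and those of *Prox1* and *Meis1* are given with these genes. Whether a gene's change with culture differs from its change with region was not tested.

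**Figure D2:**
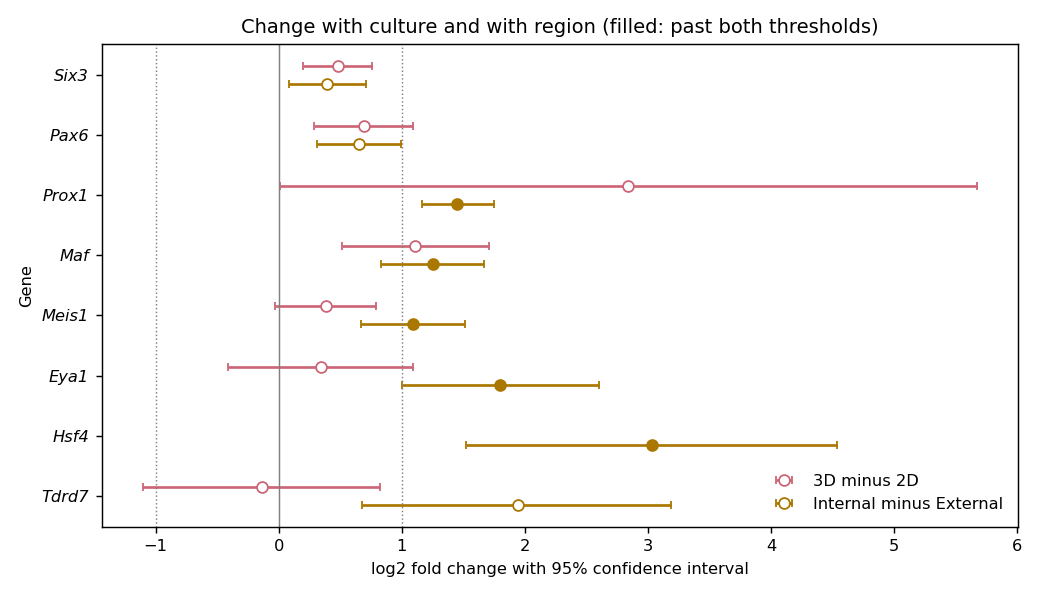
Log2 fold change of each regulator (x axis, with its 95% confidence interval) for 3D minus 2D and for Internal minus External, by gene (y axis). Filled points passed both thresholds and dotted lines mark a log2 fold change of 1 in either direction; all 5 filled points belong to the regions, and the widest interval, of *Prox1* in culture, runs from 0.01 to 5.67.

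*Prox1*, the fiber regulator, had the lowest adjusted p of the members between the regions (ENSMUSG00000010175, chr1:190118035-190170714, minus strand, GRCm38). External samples read 6.61, 6.80 and 6.57 log2 CPM and Internal samples 8.07, 8.05, 8.10 and 8.23. The groups were tight and did not overlap. The log2 fold change was 1.45 ± 0.14 (SE), a 2.74-fold higher level in Internal with an adjusted p of 1.3e-07 in limma, and the call held in all 16 alternatives tried. By p-value it ranked 52 of the 11299 genes of that table.

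In culture the size of its change, and whether it was called, depended on a single library. The 2D samples held 330, 327, 1 and 355 reads of *Prox1* (5.12, 5.49, -1.49 and 5.22 log2 CPM), and the 3D samples held 716, 745, 705 and 562 (6.52, 6.53, 6.52 and 6.13). All 3D samples were higher, and the third 2D sample lay far below its group. With all samples the log2 fold change was 2.84 ± 1.28 (adjusted p = 0.147, limma) and was not called. Without that 2D sample it was 1.15 with an adjusted p of 0.00382, which passed both thresholds.

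The gene *Prox1os* lies on the opposite strand at chr1:190170296-190217276 (GRCm38), and its start overlaps the 5′ end of *Prox1* by 419 bases. The authors counted reads of the sense strand, so reads of the 2 genes were kept apart. It was scarce, with 7, 1, 0 and 1 reads in 2D, 33, 8, 15 and 15 in 3D, 4, 3 and 10 in External, and 55, 36, 44 and 75 in Internal. Every 3D sample had more reads than every 2D sample, and every Internal sample more than every External sample. The log2 fold changes of *Prox1os* were 2.42 in culture (adjusted p = 0.0184, limma) and 2.35 between regions (adjusted p = 0.0111), neither of which was called, as the adjusted p was above 0.01. The other neighbour with a row, *Smyd2*, which encodes a lysine methyltransferase, differed by -0.24 in culture and by -0.72 between the regions (adjusted p = 0.231 and 0.00462, limma), both short of the fold change threshold.

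**Figure D3:**
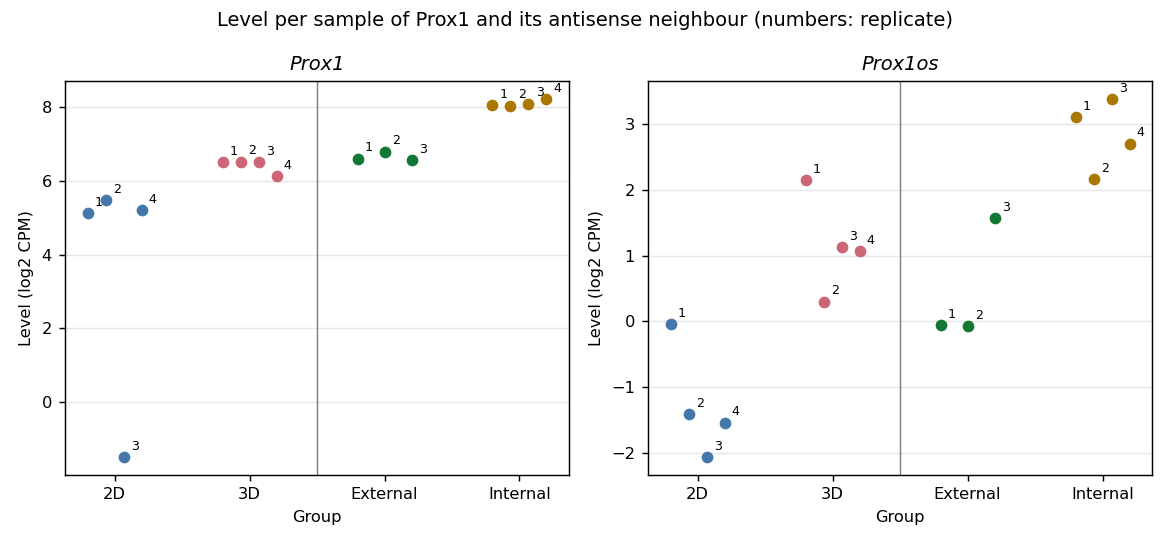
Level in log2 CPM (y axis) of *Prox1*, left, and its antisense neighbour *Prox1os*, right, in each sample of the 4 groups (x axis; the vertical line separates the 2 tables, and small numbers are replicates). The third 2D sample is the lowest point of *Prox1*, and Internal samples are above External samples for both genes.

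The promoter sequences bear on this pair because the window around the upstream start of *Prox1* lies inside *Prox1os*. It is shown 5′ to 3′ on the strand of the gene, from 250 bases before to 50 bases after the start site (RefSeq, GRCm38.p6, chr1:190170778-190171077, minus strand), with that of *Meis1*, another gene called higher in Internal (chr11:19018920-19019219, minus strand), and that of *Six3*, the most abundant and not called (chr17:85620584-85620883, plus strand). Capitals mark a match to TGACAG, the core bound by MEIS proteins.
Prox1: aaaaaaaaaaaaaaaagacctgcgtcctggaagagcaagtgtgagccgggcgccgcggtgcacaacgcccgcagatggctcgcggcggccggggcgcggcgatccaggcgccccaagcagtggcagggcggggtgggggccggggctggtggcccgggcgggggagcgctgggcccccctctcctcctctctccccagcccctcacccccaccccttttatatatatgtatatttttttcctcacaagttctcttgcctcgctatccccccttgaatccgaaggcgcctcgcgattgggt
Meis1: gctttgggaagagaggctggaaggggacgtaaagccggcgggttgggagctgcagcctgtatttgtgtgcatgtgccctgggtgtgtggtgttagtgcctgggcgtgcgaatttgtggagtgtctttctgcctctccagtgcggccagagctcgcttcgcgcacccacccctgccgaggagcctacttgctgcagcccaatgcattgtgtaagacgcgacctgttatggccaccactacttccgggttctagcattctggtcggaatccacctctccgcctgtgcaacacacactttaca
Six3: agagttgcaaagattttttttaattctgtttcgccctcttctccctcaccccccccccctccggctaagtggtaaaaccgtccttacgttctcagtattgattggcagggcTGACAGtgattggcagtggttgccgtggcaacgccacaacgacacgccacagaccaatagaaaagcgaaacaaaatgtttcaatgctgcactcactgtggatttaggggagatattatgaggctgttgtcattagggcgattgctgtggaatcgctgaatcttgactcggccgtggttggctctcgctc

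RefSeq windows were matched for 5 of the 8 members, with 9 windows in all, and *Maf*, *Eya1* and *Hsf4* had no entry. Each was searched on both strands for TGACAG, for the heat shock element GAANNTTC, for the Maf recognition site TGCTGAC and for the homeodomain core TAATTA, of which TGCTGAC and TGACAG can share the letters TGAC. Only TGACAG was matched, in 4 windows of 3 genes: in *Six3* at -139 to -134 from the start site, in *Pax6* at -159 to -154 from the start at position 105682463 of chromosome 2, and in *Tdrd7* in windows of 2 starts. *Prox1* and *Meis1*, both called higher in Internal, had no match to the 4 motifs in their windows. Among the 32851 windows of the reference, 19.2% held TGACAG, 7.86% GAANNTTC, 4.67% TGCTGAC and 5.29% TAATTA. The matches describe letters in these windows and carry no measurement of binding.

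*Maf*, which encodes c-MAF, was called higher in Internal and fell short of the threshold in culture (ENSMUSG00000055435, chr8:115682942-115707794, minus strand). External samples read 6.43, 5.50 and 5.64 log2 CPM, and Internal samples read 6.94, 7.19, 7.34 and 6.96. The highest External sample, the first, remained below the lowest Internal sample. The log2 fold change was 1.25 ± 0.20 (2.38-fold, adjusted p = 7.45e-05, limma), and the call was lost without a variance trend (adjusted p = 0.0235).

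In the cultures, *Maf* read 5.35, 4.69, 5.55 and 5.66 in 2D and 6.54, 5.86, 7.04 and 6.23 in 3D. All 3D samples were above all 2D samples (exact permutation test, two-sided p = 0.0286, the smallest that 4 samples against 4 allow). The log2 fold change of 1.11 ± 0.27 was past the fold threshold, but its adjusted p of 0.0189 (limma) was not below 0.01. The samples numbered 2 were the lowest of both groups, and with both left out the gene was called (adjusted p = 0.00752). It was also called with a block for replicate number (adjusted p = 0.00334), though whether the numbers pair the samples was not settled. The study, at the same thresholds in edgeR, named *Maf* among its 3D genes from these same samples.

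*Hsf4*, the heat shock factor of fiber cells, had the largest fold change of the members and the fewest reads (ENSMUSG00000033249, chr8:105269801-105275845, plus strand). External samples held 0, 6 and 5 reads and Internal samples 62, 37, 26 and 142. The groups did not overlap, although the first External sample, without a read, allows a level of up to 0.494 CPM (3 reads). Mean levels were 0.881 ± 0.763 CPM (SD, n = 3) in External and 7.82 ± 3.35 CPM (n = 4) in Internal, a ratio of 8.87. The fitted log2 fold change of 3.03 ± 0.73 had an adjusted p of 0.00394 in limma. It depends on the prior count added to such low values, being 3.80 with a smaller prior. Without External replicate 1, the sample with no read, it was 2.22 and not called (adjusted p = 0.0177). Without Internal replicate 1 or 4 the call was also lost, at 2.92 and 2.81 (adjusted p = 0.0207 and 0.0205). It was also lost with voom (log2 fold change 4.08, adjusted p = 0.0658), with a block for replicate number (2.81, adjusted p = 0.0282) and without a variance trend (adjusted p = 0.0252). *Fbxl8* and *Nol3*, which flank *Hsf4* on the same strand at 474 and 294 bases, differed by -0.88 (adjusted p = 0.249) and 1.34 (adjusted p = 0.0259) on the log2 scale between the regions, and neither was called.

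*Meis1* was called higher in Internal and not in culture (ENSMUSG00000020160, chr11:18879817-19018985, minus strand). External samples read 6.28, 5.48 and 5.92 log2 CPM, and Internal samples read 7.40, 7.03, 6.70 and 6.79. The groups were apart, with a log2 fold change of 1.09 ± 0.20 (2.13-fold, adjusted p = 0.000367, limma), close to the fold threshold. Without External replicate 2 or Internal replicate 1 it was not called, with a log2 fold change of no less than 0.88 over all samples left out in turn, and without a variance trend its adjusted p was 0.036. In the cultures 2D samples read 5.23, 5.56, 4.74 and 5.33 and 3D samples 5.63, 5.78, 5.57 and 5.43. These overlapped, with a difference of 0.38 ± 0.19 (95% confidence interval -0.03 to 0.79, adjusted p = 0.174), which was 0.22 without the third 2D sample (adjusted p = 0.404).

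*Eya1*, the coactivator of sine oculis homeobox proteins, was called higher in Internal from low counts (ENSMUSG00000025932, chr1:14168954-14310235, minus strand). External samples held 34, 16 and 25 reads (2.56, 1.92 and 2.80 log2 CPM) and Internal samples 136, 209, 71 and 176 (4.37, 4.61, 4.05 and 3.89). The groups did not overlap, and the log2 fold change was 1.80 ± 0.39 (3.49-fold, adjusted p = 0.00143, limma). Without External replicate 2 or Internal replicate 2 the adjusted p rose above 0.01, to at most 0.0121, and with voom it was 0.0166. In the cultures the levels were 2.31, 2.16, 2.84 and 1.66 in 2D and 2.67, 2.62, 3.07 and 1.94 in 3D, which overlapped. The difference of 0.34 ± 0.34 (adjusted p = 0.521) had a 95% confidence interval of -0.41 to 1.09, and was 0.14 without 2D replicate 4, 0.17 without 3D replicate 3 and 0.55 without 3D replicate 4.

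*Tdrd7* was not called between the regions (ENSMUSG00000035517, chr4:45965334-46034761, plus strand). Of the 7 members analysed in culture it had the lowest mean log2 CPM, at 2.08 in 2D and 1.94 in 3D. It overlapped *Eya1* (2.24 and 2.58) in both, and in 2D *Eya1* had fewer reads in sum (163 against 172). External samples held 18, 4 and 6 reads and Internal samples 25, 92, 29 and 117, which is 1.71, 0.23 and 0.93 against 2.02, 3.45, 2.80 and 3.32 log2 CPM. Every Internal level was above every External level, but the lowest Internal sample lay close to the highest External one. The log2 fold change of 1.94 ± 0.61 had an adjusted p of 0.0239 in limma and was not called. The study, at the same thresholds in edgeR, listed *Tdrd7* among its internal genes from these same samples. In the cultures, 2D samples held 94, 16, 27 and 35 reads and 3D samples 36, 20, 27 and 34. The groups overlapped, and the difference of -0.14 ± 0.44 (adjusted p = 0.85) turned to 0.28 without the first 2D sample.

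*Pax6*, at the head of the lens programme, was higher in every 3D and Internal sample and was called in neither comparison (ENSMUSG00000027168, chr2:105668900-105697364, plus strand). External samples read 6.99, 6.74 and 7.27 log2 CPM, and Internal samples read 7.39, 7.72, 7.58 and 7.90. The groups did not overlap, and the difference of 0.65 ± 0.16 had an adjusted p of 0.00601 (limma) but a fold change of 1.57, below the threshold. The 2D samples read 5.90, 5.59, 5.36 and 5.74 and the 3D samples 6.46, 6.66, 6.28 and 5.94. These were also apart, by 0.69 ± 0.18 (adjusted p = 0.0246). The antisense gene *Pax6os1*, which overlaps the start of *Pax6*, differed by 0.43 in culture (adjusted p = 0.362) and by 0.24 between the regions (adjusted p = 0.881).

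*Six3*, an early regulator of the lens placode, was called in neither comparison (ENSMUSG00000038805, chr17:85613608-85629302, plus strand). The 2D samples read 8.89, 9.09, 8.90 and 8.86 log2 CPM and the 3D samples 9.36, 9.31, 9.69 and 9.29. All 3D samples were higher, by 0.48 ± 0.13 (1.39-fold, adjusted p = 0.0267, limma), which was not called. External samples read 8.22, 8.38 and 8.66 and Internal samples 8.84, 8.46, 9.11 and 8.84. The regions overlapped, with a difference of 0.39 ± 0.15 (95% confidence interval 0.08 to 0.71, adjusted p = 0.071). Its antisense neighbour *Six3os1* was abundant enough to measure, at 4.76 in 2D, 5.33 in 3D, 5.08 in External and 5.31 in Internal, and was called in neither comparison (adjusted p = 0.0574 and 0.551).

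Because *Six3* was measured well in every library, the other members were also expressed relative to it within each sample, which removes the scaling of the tables. *Prox1* was at a median log2 ratio to *Six3* of -3.70 in 2D, -3.00 in 3D, -1.60 in External and -0.69 in Internal. The ranges of 2D (-10.39 to -3.60), 3D (-3.17 to -2.78), External (-2.10 to -1.58) and Internal (-1.01 to -0.41) did not touch. The low end of 2D is the sample with 1 read, and without it the 2D range was -3.77 to -3.60. *Pax6* lay at -3.54 to -2.99 in 2D and -3.41 to -2.65 in 3D, which overlapped, and at -1.64 to -1.22 in External and -1.53 to -0.74 in Internal, which also overlapped. For both genes each captured region had a higher ratio than any whole spheroid. A ratio also follows its denominator: *Six3* itself averaged 9.41 log2 CPM in 3D and 8.42 in External, while *Prox1* averaged 6.42 and 6.66, each on the scale of its own table. How much of the higher ratio belongs to either gene was not tested. For 2 genes the External and 3D ratios overlapped: *Maf* at -3.03 to -1.79 and -3.45 to -2.66, and *Tdrd7* at -8.15 to -6.51 and -7.87 to -7.09. RNA of the cultures and of the captured regions was extracted with different kits, and the zone between the regions was not captured, so region, kit and capture cannot be told apart in a comparison across the tables.

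**Figure D4:**
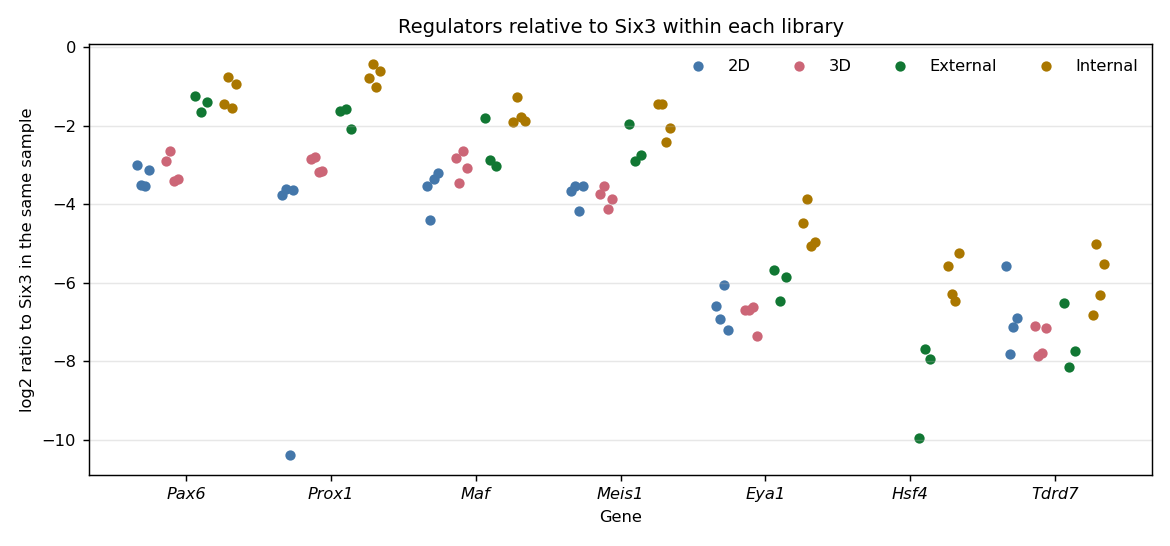
Log2 ratio of each regulator to *Six3* in the same library (y axis) by gene (x axis), with a point for each sample of 2D, 3D, External and Internal. The ratio of *Prox1* has a median of -3.70 in 2D and -0.69 in Internal, while External and 3D overlap for *Maf* and *Tdrd7*. The level of *Six3* itself also differs between the groups.

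The genes whose pattern over the 15 samples was most like a called member were found as the lowest root-mean-square difference in log2 CPM after centring each gene within each table. For *Maf* they were *Fundc1*, a mitophagy receptor of the outer mitochondrial membrane, at 0.265, and *Abhd4*, a lipase of N-acyl phospholipids, at 0.267. For *Meis1* they were *Marchf3* at 0.209 and *Mir100hg* at 0.233, and for *Eya1* they were *Nhs*, the gene of Nance-Horan syndrome with congenital cataract, at 0.330 and *Mctp1* at 0.332. For *Prox1* they were *Timp3*, an inhibitor of matrix metalloproteinases, at 0.368 and *Zfp536* at 0.406. *Zfp536* had no read in the third 2D sample, and without that sample the genes nearest to *Prox1* were *Ezh1* at 0.175 and *Tlr2* at 0.192. Leaving it out also replaced both genes of *Meis1*, by *Btrc* at 0.174 and *Fbxl2* at 0.180, and brought *Camk1d* (0.308) ahead of *Nhs* (0.336) for *Eya1*. For *Maf* the genes were again *Fundc1* (0.274) and *Abhd4* (0.276). *Hsf4* was not eligible. The samples share libraries and groups, and the measure is a description.

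The counts of calls for the relatives of the members are read beside the shares over all genes. These were 2.92% higher and 1.51% lower in culture and 3.27% higher and 4.35% lower between the regions, so that lists of this size would hold few calls at those shares. An unadjusted p below 0.05 was reached by 33.7% of all genes in culture and 33.6% between the regions. Among 15 PAX, sine oculis homeobox, EYA and DACH relatives, 10 had a row in the culture table and 9 in the regions table, and 0 were called in either direction in both comparisons, with median log2 fold changes of 0.21 and 0.24. At an unadjusted p below 0.05 (limma) there were 2 in each comparison, and voom also called 0. Of the listed homeodomain relatives and partners of MEIS1, 11 had a row in each table and 0 were called in limma or voom, with medians of 0.37 and 0.50, and 3 and 5 had an unadjusted p below 0.05. *Meis2*, a relative of *Meis1*, differed by 0.84 ± 0.15 (adjusted p = 0.000204, limma) between the regions, below the fold threshold. Among 11 MAF, HSF and PROX relatives in each table, 1 was called: *Nfe2l1*, a leucine zipper factor that pairs with small MAF proteins, rose by 1.20 ± 0.16 in 3D (adjusted p = 0.00146). Between the regions 0 of them were called in limma or voom, 3 had an unadjusted p below 0.05, and *Nfe2l1* differed by 0.83 ± 0.17 (adjusted p = 0.000663).

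Of 23 other transcription regulators of the lens with a row in the regions, 1 was called higher in Internal and 3 lower, where 3.27% and 4.35% of all genes were. *Sox9*, an SRY-box factor of the early lens, rose by 1.29 ± 0.19 (adjusted p = 1.99e-05, limma). *Etv4* and *Etv5*, ETS factors induced by FGF signalling, fell by 2.02 (adjusted p = 1.51e-09) and by 1.18 (adjusted p = 1.34e-05). *Rbpj*, the DNA-binding effector of NOTCH signalling, fell by 1.04 (adjusted p = 6.12e-05). In culture 1 of 24 was called: *Sox4*, another SRY-box factor, rose by 1.15 ± 0.18 in 3D (adjusted p = 0.00293). *Hes1*, a NOTCH target, differed by 1.27 ± 0.27 in culture with an adjusted p of 0.0101, just outside the threshold.

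Among the TUDOR family and RNA-binding proteins around TDRD7, 0 of 15 were called between the regions in limma or voom, where 4 had an unadjusted p below 0.05, and 1 of 16 was called in culture. The medians were 0.08 and -0.08. That gene was *Igf2bp1*, a messenger RNA-binding protein, which was lower in 3D (adjusted p = 0.00285, limma), with 17 to 113 reads in 2D and 0 to 1 in 3D. The call was lost without 2D replicate 4, 3D replicate 3 or 3D replicate 4, and with voom, and the gene is removed by a filter at a mean of 1 log2 CPM. *Celf1*, a regulator of splicing and decay of lens transcripts, differed by -0.66 ± 0.12 in culture (adjusted p = 0.00615), below the fold threshold, and by 0.03 ± 0.18 between the regions (adjusted p = 0.939).

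Reported targets and fiber differentiation genes had 14 of 35 members with a row in each table. Of the crystallins on this list *Cryab* had a row in both tables and *Cryba4* in the culture table. In Internal 6 were called higher and 1 lower, where 3.27% and 4.35% of all genes were. The median of the list was 1.02 on the log2 scale, against 0.04 over all genes. Of these 14 genes voom called 5. *Jag1*, a NOTCH ligand, rose by 1.82 ± 0.40 (adjusted p = 0.0019, limma), *Atp1b1*, a sodium pump subunit, by 1.63 ± 0.29, *Ank2*, a membrane skeleton adaptor, by 1.20 ± 0.15, *Cap2*, an actin regulator, by 1.09 ± 0.28, and *Fzd6* and *Wls*, of WNT signalling, by 1.07 ± 0.21 and 1.07 ± 0.14. The study named these 6 as internal genes from these same samples, so that they are not independent evidence. *Epha2*, an ephrin receptor, fell by 1.32 in Internal (adjusted p = 0.00103). In 3D, 2 of the 14 were called higher, against 2.92% of all genes: *Wls* rose by 1.59 ± 0.15 and *Cdkn1b*, the cell cycle inhibitor p27, by 1.32 ± 0.15. The study named both among its 3D genes from these same samples.

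Markers of other cell types moved with the groups in part, and their part in the results above was not tested. Of 6 markers of retinal pigment epithelium 1 had a row, *Mitf*, which rose by 2.13 in 3D (adjusted p = 0.000513, limma) and 1.72 in Internal (adjusted p = 2.31e-06), with summed levels of 34.8 to 43.2 RPM in External and 84.1 to 161 in Internal. Of 5 markers of cornea or conjunctiva 1 had a row, *Aldh3a1*, which rose by 3.89 in 3D (adjusted p = 0.000597) and by 2.64 in Internal (adjusted p = 5.43e-10), at 91.5 to 150 RPM in External and 599 to 935 in Internal. The defining genes *Tyr*, *Tyrp1*, *Pmel*, *Rpe65* and *Dct*, and *Krt12*, *Krt5*, *Krt14* and *Krt3*, had no row in either table. Fibroblast or mesenchymal markers differed widely in level: *Vim* averaged 12.27 to 13.05 log2 CPM and *S100a4* 11.67 to 12.84 over the 4 groups, while *Thy1* had 0 to 3 reads in 2D and *Col1a2*, *Tagln* and *Fap* had no row in the regions. There, 9 of 12 had a row, at a summed 10900 to 14700 RPM in External and 9270 to 12200 in Internal, of which 2 were called higher and 3 lower. In culture 11 of 12 had a row, at 15200 to 21300 RPM in 2D and 14900 to 17600 in 3D, of which 4 (*Col3a1*, *Thy1*, *Pdgfrb* and *Postn*) were called higher in 3D and 0 lower. The shares over all genes were 2.92% higher and 1.51% lower in culture, and 3.27% higher and 4.35% lower between the regions. Of the 5 lens epithelium markers with a row, 1, the ceruloplasmin gene *Cp*, which the study also named from these samples, was called higher in 3D and 0 between the regions. Markers of neural retina (1 of 8) and of blood or immune cells (1 of 5) had 0 calls, and of 3 endothelial markers 0 had a row.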

How the data were processed

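RNA of 15 samples was sequenced from the 3′ end. The authors trimmed reads, kept sense reads, aligned them to GRCm38.p6 with STAR 2.7.8a (build and tools also in the submitters' processing notes), kept unique alignments, counted them with featureCounts 1.6.0, removed low genes and scaled and tested each table with edgeR. Each deposited value is a log2 CPM of a gene in a sample. Their columns of fold change, F and p-values were not used. Whole reads were recovered from the log2 values, with 100% of values within 0.05 of a whole number of reads.

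Each table was fitted separately in limma 3.58.1 (R 4.3.3) with a variance trend, Benjamini-Hochberg adjustment over all its genes, and calls at an adjusted p below 0.01 with an absolute log2 fold change above 1. Intervals are 95%, two-sided. The limit of 3 reads covers counting error only. Alternatives were voom on recovered reads, no variance trend, a robust prior, a smaller prior count, median centring, a filter at a mean of 1 log2 CPM, other thresholds, a replicate block and each sample left out. The fit was tested on simulated data. Python 3.11.15, numpy 2.4.6, pandas 2.3.3 and matplotlib 3.10.9 were used. Positions are from GENCODE.

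The genes named are the 8 members, the called genes and a few other regulators of 6 lists, markers, the 2 genes most like each called member and the neighbours. The members, lists and markers were chosen with earlier results of these data known.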

Additional observations from a re-analysis of the deposited data

Results flagged for a closer look

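*Prox1* in 2D had a sample far from the others: the gap of the third 2D sample to its nearest neighbour was 0.947 of the range of the 4 samples. *Prox1* in 3D also had one, since the fourth 3D sample lay apart by 0.976 of the range, where the whole range ran from 6.13 to 6.53 log2 CPM. Both exceed the 95% limit of Dixon's test for 4 samples. Of 22 groups of 4 samples tested, 2 passed, and chance passes about 1 in 20. The causes were not tested.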

How the results depend on the processing

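Of the members, 0 were called higher in 3D, and 1 was called at an adjusted p below 0.05 (*Maf*), with both samples numbered 2 left out (*Maf*), or with the replicate block (*Maf*). Leaving out each culture sample in turn gave 0 to 1, the 1 being *Prox1* without the third 2D sample. In Internal 5 were called higher, but 2 without a variance trend and 3 with voom, where *Eya1* and *Hsf4* were lost. Leaving out each region sample in turn gave 3 to 5. *Prox1* was called there in all 16 alternatives, and the signs of all 8 held. *Tdrd7* in culture turned from -0.14 to 0.28 without the first 2D sample and to 0.03 without the second 3D sample, and the other omissions gave down to -0.41. Of the listed genes, 1 was called lower in 3D, 0 with voom or after a filter at 1 log2 CPM, 3 with no fold change threshold, and 0 to 1 with a culture sample left out. In Internal 7 were called higher and 4 lower, and without a variance trend 1 and 1. With voom and with the replicate block 5 were higher, with no fold change threshold 14, and leaving out each region sample gave 4 (without External replicate 3) to 9. In 2D, 2 of 7 members kept their rank without the third sample. The causes were not tested. Whether the replicate numbers pair the samples was not settled. Deviations of same-numbered samples correlated at 0.227, 0.503, 0.0661 and 0.00521 in culture and below 0 in the regions. With the replicate block *Hsf4* lost its call in the regions, and no call of another member changed there. The likeness and the ratio to *Six3* without the third 2D sample were chosen after seeing the data.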
